A study of Caenorhabditis elegans with 16 samples.

Results

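The genes described here remove superoxide or hydrogen peroxide, or serve thiol redox chemistry, in Caenorhabditis elegans. They were taken by name: every gene of the deposited tables called prdx, ctl, sod, trx, trxr, gpx, glrx, msra, gsr, gcs or gss with a number, apart from sod-3. This rule found 34 of the 42048 genes listed, namely 3 catalases, 3 peroxiredoxins, 4 superoxide dismutases, 8 glutathione peroxidases, 5 glutaredoxins, 5 thioredoxins, 2 thioredoxin reductases, 2 enzymes of glutathione synthesis, 1 glutathione reductase and 1 methionine sulfoxide reductase. RNA came from whole worms on day 1 of adulthood, in 4 groups of 4 libraries. Worms of strain SHU47, with the genotype glp-1, were fed mxl-2 RNAi, mml-1 RNAi or, as their control, the RNAi called Luc in the titles. The remaining group was strain TU3401 on Luc RNAi. The titles place the glp-1 groups on the TU3401 background too, and name no glp-1 allele.

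All groups were fed HT115 bacteria with the L4440 vector, which makes the double-stranded RNA. As known from the field, TU3401 has no SID-1, the membrane channel that takes up double-stranded RNA, outside cells in which the neuronal unc-119 promoter drives it, so RNAi by feeding acts mainly in neurons. Whole-worm RNA therefore mixes the few cells in which a target is knocked down with all other tissues. Loss of glp-1, a Notch receptor of the germ cell precursors, leaves adults with hardly any germ cells. MML-1 (a Mondo factor) and MXL-2 (an Mlx factor) bind DNA as a pair, and the title and design of the series ask what their knockdown in neurons does in germline-less worms, peroxidase activity included. The labels do not say whether replicates came from separate cultures, so p-values measure only the spread between libraries.

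Superoxide dismutases turn superoxide into oxygen and hydrogen peroxide. Catalases split the peroxide directly, while peroxiredoxins and glutathione peroxidases reduce it with electrons from protein thiols or glutathione. Thioredoxins and glutaredoxins carry these electrons onward, and thioredoxin reductase and glutathione reductase return them to the reduced state with NADPH. GCS-1 makes the committing step of glutathione synthesis and GSS-1 completes it. In C. elegans many of these genes answer to the stress factors SKN-1 and DAF-16, and both factors are needed for the long life of germline-less worms.

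The library totals worked out from the deposited values ran from 18818680 to 27228111 reads. Germline loss showed in the markers: all 14 germline and oocyte genes were called lower in glp-1 worms on Luc than in TU3401. Their summed level was 12.1 to 19.1 RPKM against 6443 to 6784 RPKM. RPKM counts reads per kilobase of gene length, scaled to the depth of the library. The genes pgl-3 and htp-3 were listed at 0 in glp-1 Luc libraries. Muscle markers were called higher in 3 of 3 genes, with sums of 1255 to 1363 against 293 to 369.7 RPKM, and intestine markers in 4 of 6, with sums of 10293 to 12633 against 5146 to 6718 RPKM. Of the other marker lists, neuron genes were called 3 higher and 1 lower of 5 (sums 526 to 698 against 512 to 577 RPKM) and hypodermis genes 1 higher and 1 lower of 2 tested (803 to 1107 against 275 to 456 RPKM), while sperm genes were too low to test (1.13 to 2.43 against 0.508 to 2.18 RPKM). These tissue markers moved with every difference between glp-1 and TU3401 worms given below, and their part in those differences was not tested. In bulk RNA, fewer cells of a type and less RNA per cell cannot be told apart. The genes targeted by RNAi were not lower in the libraries labelled with them: mml-1 averaged 41.8 ± 33.3 RPKM in libraries labelled mml-1 RNAi and 20.6 ± 11.4 RPKM on Luc, and mxl-2 averaged 225 ± 339.6 RPKM in libraries labelled mxl-2 RNAi and 24.7 ± 4.003 RPKM on Luc (SD, n = 4 each). Neither difference was called (limma adjusted p = 0.819 and 0.766). In libraries labelled mml-1 RNAi mxl-2 averaged 96.8 ± 141 RPKM. The sources used here do not state whether reads of the fed double-stranded RNA are counted in these values.

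The members spanned a wide range of levels. All 34 had a read in some library. The highest in every group was prdx-2, whose product is the main cytosolic peroxiredoxin of worms, at 1339 ± 148 RPKM in libraries labelled mxl-2 RNAi, 1370 ± 98.8 in those labelled mml-1 RNAi, 1178 ± 81.7 in glp-1 worms on Luc and 1065 ± 30.02 in TU3401 (mean ± SD of 4 libraries, as for all values with ± here). It was followed by sod-1 in all 4 groups. In glp-1 worms on Luc 9 members averaged at least 100 RPKM and 9 averaged under 10 RPKM, against 8 and 12 in TU3401. All members together summed to 4150 ± 262 RPKM in libraries labelled mxl-2 RNAi, 4018 ± 125 in those labelled mml-1 RNAi, 3790 ± 223 in glp-1 worms on Luc and 3365 ± 111 in TU3401. These sums were not tested.

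**Figure D1:**
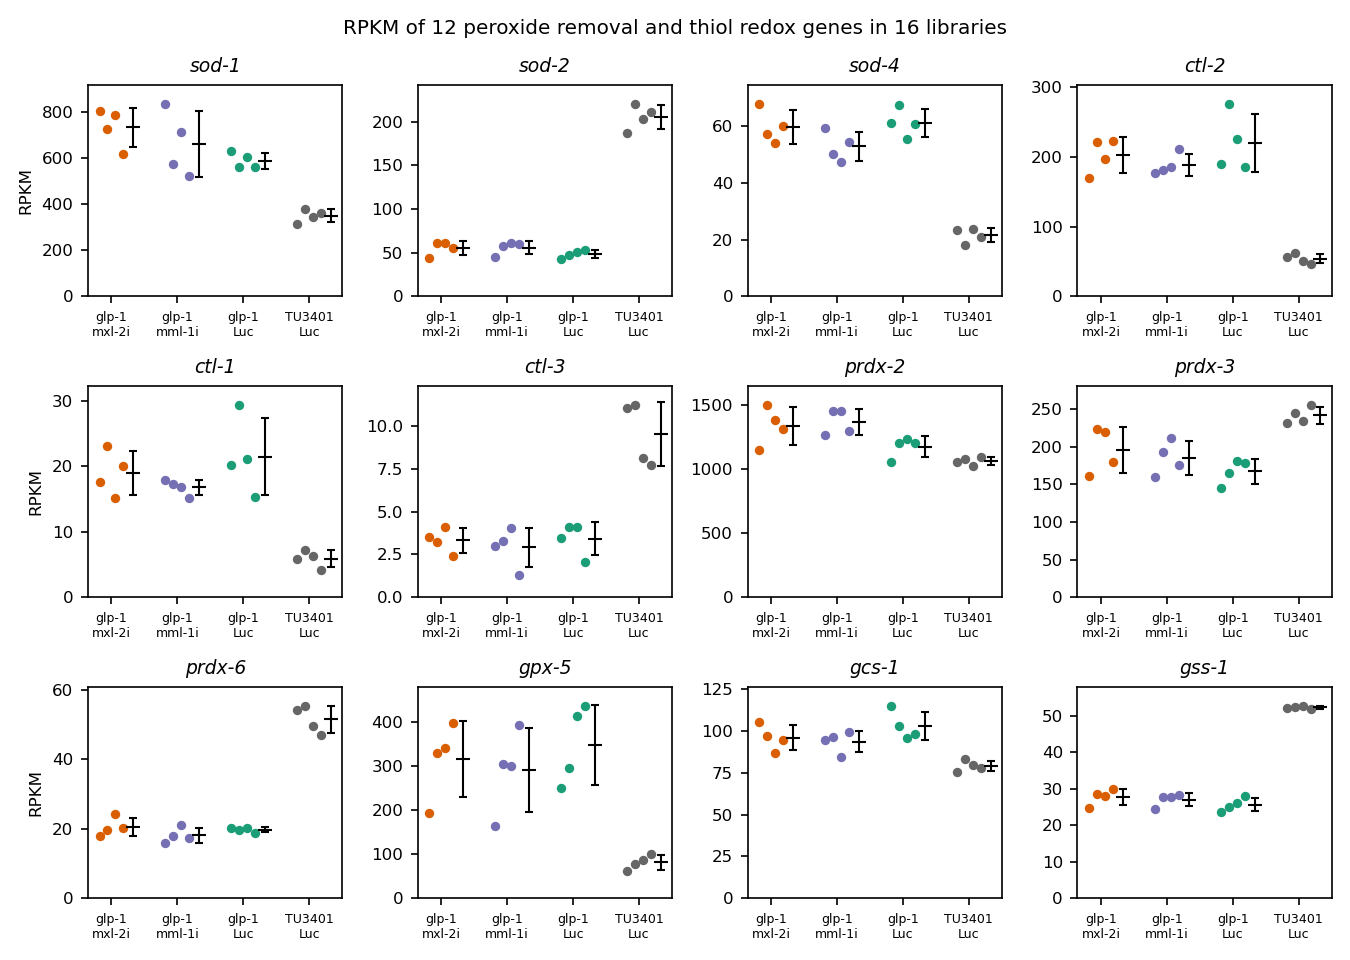
RPKM (linear axis from 0) of 12 members in the 16 libraries, with a point per library in replicate order from left to right and a bar for the mean ± SD of each group's 4 libraries. TU3401 libraries stand above all glp-1 libraries for sod-2, ctl-3, prdx-6, gss-1 and, by little, prdx-3. They stand below all glp-1 libraries for sod-1, sod-4, ctl-1, ctl-2, gpx-5 and, by little, gcs-1. In all these genes the ranges of the 3 glp-1 groups overlap. For prdx-2 the TU3401 range overlaps that of glp-1 Luc.

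Germline-less worms on Luc differed from TU3401 in most of these genes and in both directions. Most glutathione peroxidases and catalases rose, while glutaredoxins, thioredoxin reductases and the less abundant peroxiredoxins fell, although trxr-1 was called higher under quantile scaling. Of 32 members tested (sod-5 and trx-5 were too low), 13 were called higher and 17 lower in glp-1 worms (limma on log2(RPKM + 1), Benjamini-Hochberg adjusted p under 0.05 over all 13563 genes tested). Over all genes tested, 41.5% were called higher and 46.1% lower. A called share this near the background is no result about the members. Calls with a log2 fold change of at least 1 on that scale numbered 8 members upward, and of -1 or below 8 downward, against 28.3% and 37.5% of all genes. The median absolute log2 fold change was 1.00 for members and 1.41 for all genes. In 26 of the 32 members no library of either group lay in the other's range, 11 with glp-1 higher and 15 with glp-1 lower, against 83.4% of all genes (38.4% higher and 45% lower). The members called lower, and those lower without overlap, include gpx-8, whose mean reached the 1 RPKM needed for testing only through TU3401. All 30 called members had the same sign in 4 of 4 replicate numbers. For the 26 without overlap this was fixed in advance, so it adds little, and the share over all genes was not counted. Over all 34 members, the authors' deposited table had 13 higher and 13 lower at a false discovery rate under 0.05, with sod-5 among the lower. Of the members called lower here, glrx-10 (false discovery rate 0.837), gpx-4 (0.446), trx-4 (0.400), trxr-1 (0.0837) and trx-2 did not pass there. The authors' share over all genes was not counted. The split moved with some scalings. Median-ratio scaling left it at 13 higher and 17 lower, against 40.6% and 46.7% of all genes. Quantile scaling moved the median of all genes up by 0.42 on the log2 scale and gave 15 members higher and 11 lower, against 48.8% higher and 40.8% lower of all genes. With limma's voom on the recovered reads 14 members were higher and 13 lower, against 45.8% higher and 43.6% lower of all genes.

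**Figure D2:**
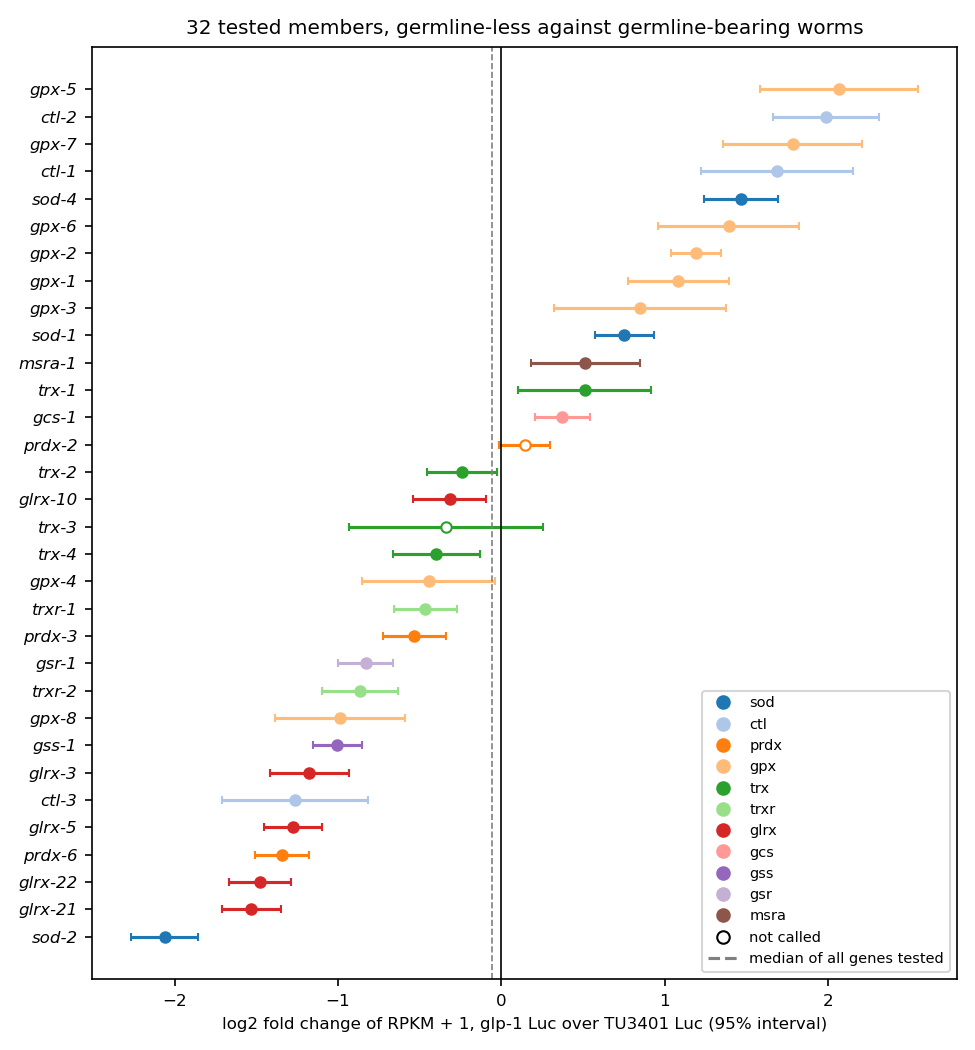
Log2 fold change (glp-1 Luc over TU3401 Luc, log2(RPKM + 1) scale) of the 32 tested members with 95% confidence intervals from limma, ordered by size and coloured by family, with open points for members not called and a dashed line at the median of all genes tested. The values run from -2.06 for sod-2 to 2.07 for gpx-5, with 13 members called higher, 17 called lower and 2 (prdx-2, trx-3) not called.

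Of the 3 superoxide dismutase genes tested, sod-1 and sod-4 rose in glp-1 worms and sod-2 fell. The gene sod-1 (chromosome II, 6972706 to 6973887, WBcel235), for the cytosolic copper and zinc enzyme, stood at 630.4, 560.5, 604 and 560 RPKM in glp-1 replicates 1 to 4 and at 313, 378, 344 and 362 RPKM in TU3401. Every glp-1 library was above every TU3401 library (log2 fold change 0.75, SE 0.08, adjusted p = 1.42e-05). Under quantile scaling the log2 fold change of sod-1 was smaller, at 0.32 (limma adjusted p = 0.00323). The gene sod-4 (chromosome III, 9496884 to 9500375), for the extracellular copper and zinc enzyme, had 61.1, 67.4, 55.4 and 60.7 RPKM in glp-1 worms and 23.4, 18.2, 23.7 and 20.9 RPKM in TU3401. Its groups did not overlap and the ratio of means was 2.84 (log2 fold change 1.47, SE 0.10, adjusted p = 6.11e-07), with a log2 fold change of 2.11 under quantile scaling.

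The gene sod-2 (chromosome I, 8434550 to 8435807), for the mitochondrial manganese enzyme, gave 42.4, 47.4, 51.1 and 53.4 RPKM in glp-1 libraries and 187, 221, 203 and 211 RPKM in TU3401. All glp-1 libraries lay far below all TU3401 libraries, with a TU3401 mean 4.23 times the glp-1 mean. It was called lower (log2 fold change -2.06, SE 0.09, adjusted p = 2.62e-08). The ratio of sod-1 to sod-2 within a library was 14.9, 11.8, 11.8 and 10.5 in glp-1 worms, against 1.68, 1.72, 1.69 and 1.72 in TU3401. The level of sod-5, a further cytosolic enzyme, was too low for the test, with 2 reads over the 4 glp-1 libraries and 60 reads over the 4 TU3401 libraries. That is a ratio of 0.0316 per unit of depth, with a 95% interval of 0.00374 to 0.119 that covers counting error only.

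For scale, sod-3, which the naming rule left out and which codes for the other mitochondrial manganese enzyme, averaged 79.4 ± 13.2 RPKM in glp-1 worms and 5.33 ± 1.87 RPKM in TU3401 (log2 fold change 3.71, limma adjusted p = 4.49e-07). The pair of mitochondrial dismutase genes thus moved in opposite directions. The sum of sod-1, sod-2, sod-4 and sod-5 was 698 ± 28.98 RPKM in glp-1 worms and 578 ± 39.7 RPKM in TU3401. Of that sum sod-1 made up 84.2 ± 1.5% in glp-1 worms and 60.4 ± 0.73% in TU3401, sod-2 made up 6.97 ± 0.89% in glp-1 worms and 35.6 ± 0.085% in TU3401, and sod-4 made up 8.78 ± 0.94% in glp-1 worms and 3.76 ± 0.67% in TU3401. The sod-2 gene lies within dpt-1 on the opposite strand, and 21 of its 802 exon bases overlap an exon of dpt-1, which was itself lower (log2 fold change -1.79). For sod-4, 175 of 1306 exon bases overlap ctr-9 on the opposite strand, which was lower (log2 fold change -2.54). For sod-1, 85 of 720 exon bases overlap C15F1.13 on the opposite strand, which was higher (log2 fold change 0.78). Exon bases here and below are those of the annotation and exceed the length behind the RPKM, which was 676 bases for sod-4 and 666 for sod-2. Whether the overlaps lie in counted bases was not tested. Strand handling in the counting is not stated, so any reads from these overlaps cannot be told apart.

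The catalases showed 2 genes up and 1 down, and lie in a row on chromosome II. From left to right the strip holds ctl-2 (14299556 to 14302027), ctl-1 (14303568 to 14306260) and ctl-3 (14307798 to 14310779), with 1540 and 1537 bases between them. The copies are alike, and how the authors' counting divided reads that fit several of them is not stated, so single values are uncertain.

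The peroxisomal catalase gene ctl-2 had 190.1, 276, 225 and 186 RPKM in glp-1 libraries and 56.1, 62.5, 51.2 and 46.5 RPKM in TU3401. The glp-1 libraries were all above the TU3401 ones, by 4.05 times in the means (log2 fold change 1.99, SE 0.14, adjusted p = 8.93e-07). In ctl-2, 65 of 1611 exon bases overlap Y54G11A.7 on the opposite strand, which was higher (log2 fold change 1.05). The cytosolic catalase gene ctl-1 stood at 20.1, 29.4, 21.04 and 15.4 RPKM in glp-1 libraries and 5.83, 7.29, 6.32 and 4.16 RPKM in TU3401, again without overlap (log2 fold change 1.69, SE 0.20, adjusted p = 3.99e-05). Its neighbour ctl-3 was the reverse, at 3.45, 4.10, 4.12 and 2.05 RPKM in glp-1 libraries and 11.05, 11.2, 8.15 and 7.72 RPKM in TU3401. No library of either group reached the other group's range, and ctl-3 was called lower (log2 fold change -1.26, SE 0.20, adjusted p = 0.000219). Quantile scaling put ctl-1 at a log2 fold change of 2.38.

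Within a library, ctl-2 exceeded ctl-3 by 55.2, 67.3, 54.6 and 90.5 times in glp-1 worms and by 5.08, 5.56, 6.28 and 6.02 times in TU3401. The ratio of ctl-2 to ctl-1 had ranges that overlapped, at 10.4 ± 1.28 in glp-1 worms and 9.37 ± 1.36 in TU3401. The sum over the 3 copies was 244 ± 47.9 RPKM in glp-1 worms, against 69.5 ± 9.72 RPKM in TU3401, and the lowest glp-1 library, at 203 RPKM, was above the highest TU3401 library, at 80.99 RPKM.

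The peroxiredoxins had the highest summed RPKM of the families, and their most abundant gene did not pass the test. The level of prdx-2 (chromosome II, 5378195 to 5379631) was 1058, 1208, 1239 and 1208 RPKM in glp-1 libraries, against 1054, 1084, 1028 and 1094 RPKM in TU3401. Replicate 1 of the glp-1 group fell within the TU3401 range and the other 3 glp-1 libraries lay above it (log2 fold change 0.14, SE 0.07, adjusted p = 0.0740). Without that library the log2 fold change was 0.19 with an adjusted p of 0.00955 by limma, voom gave 0.42 (adjusted p = 0.000264), and quantile scaling turned the sign to -0.11 (adjusted p = 0.230).

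The gene prdx-3, for the mitochondrial peroxiredoxin, had 145, 165, 181 and 179 RPKM in glp-1 libraries and 232, 245, 234.5 and 256 RPKM in TU3401. It was lower in every glp-1 library (log2 fold change -0.53, SE 0.09, adjusted p = 0.000270). The gene prdx-6, for a peroxiredoxin of the class with a single active cysteine, had 20.2, 19.6, 20.3 and 18.7 RPKM in glp-1 libraries and 54.1, 55.4, 49.6 and 47.05 RPKM in TU3401. Its glp-1 values were tightly grouped and all below those of TU3401, whose mean was 2.62 times as high (log2 fold change -1.34, SE 0.07, adjusted p = 1.20e-07). Quantile scaling gave prdx-6 a log2 fold change of -0.43 (adjusted p = 0.000924). The sum of the 3 genes was 1365 ± 97.1 RPKM in glp-1 worms and 1358 ± 39.3 RPKM in TU3401, with overlapping ranges. Within it prdx-2 took 86.3 ± 0.39% in glp-1 worms and 78.4 ± 0.17% in TU3401.

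**Figure D3:**
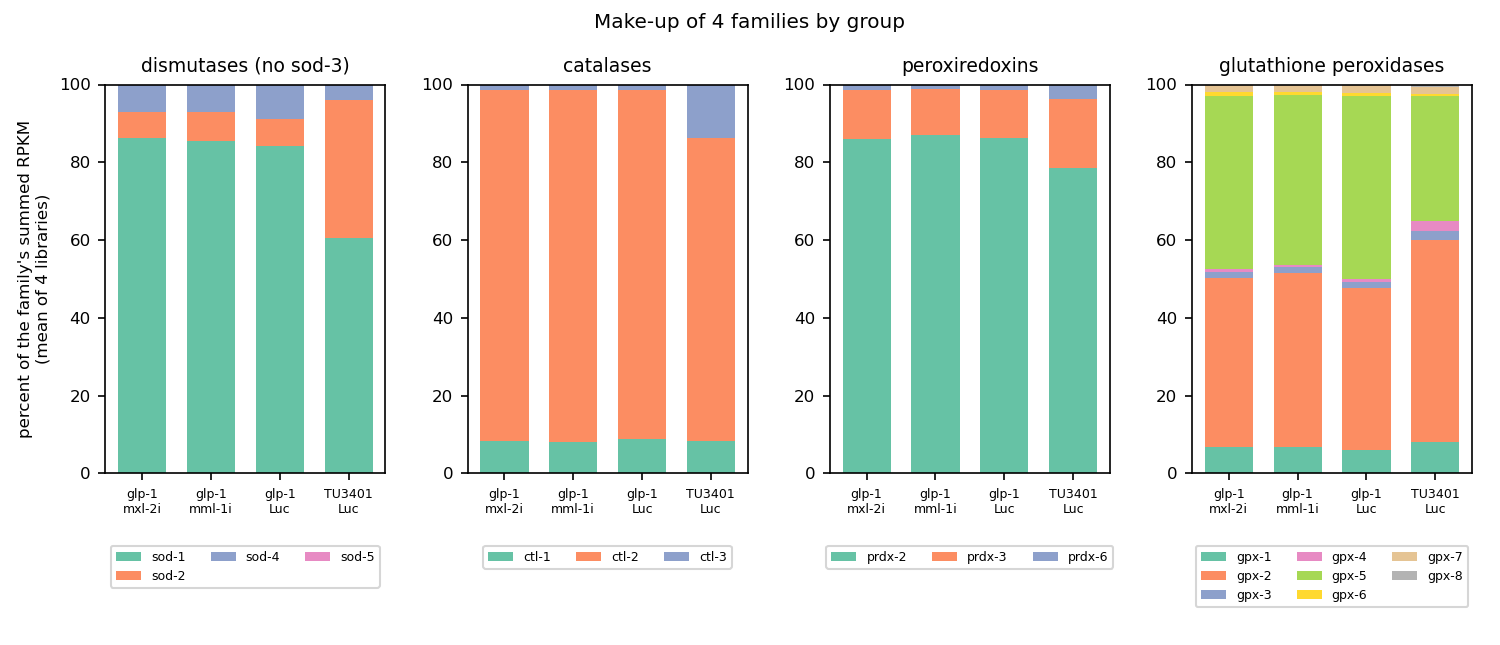
Share (percent, mean of 4 libraries per group) that each gene takes of its family's summed RPKM, stacked to 100, for superoxide dismutases without sod-3, catalases, peroxiredoxins and glutathione peroxidases in the 4 groups. The share of sod-2 is 6.97% in glp-1 worms on Luc and 35.6% in TU3401, and that of ctl-3 is 1.399% in glp-1 worms on Luc and 13.7% in TU3401.

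Most glutathione peroxidase genes rose: of the 8, 6 were called higher and 2 lower in glp-1 worms, against 41.5% and 46.1% of all genes tested. These enzymes reduce peroxides, lipid peroxides included. The most abundant in glp-1 worms, gpx-5 (chromosome X, 9584668 to 9586344), had 249, 294, 413 and 436 RPKM in glp-1 libraries, against 61.4, 77.2, 85.8 and 101 RPKM in TU3401. Its lowest glp-1 library was well above its highest TU3401 library, and it was called higher (log2 fold change 2.07, SE 0.21, adjusted p = 1.30e-05). The most abundant in TU3401, gpx-2, had 299.6, 293, 314 and 286 RPKM in glp-1 libraries and 138, 136, 123 and 124 RPKM in TU3401. Both groups were tight and did not overlap (log2 fold change 1.19, SE 0.07, adjusted p = 1.52e-07).

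At lower levels, gpx-1 had 33.7, 43.9, 52.8 and 47.5 RPKM in glp-1 libraries and 18.7, 22.1, 18.6 and 21.6 RPKM in TU3401 (log2 fold change 1.08, SE 0.14, adjusted p = 5.07e-05). The level of gpx-7 was 11.4, 16.1, 17.3 and 21.7 RPKM in glp-1 libraries and 3.65, 3.22, 4.92 and 4.38 RPKM in TU3401 (log2 fold change 1.78, SE 0.19, adjusted p = 1.43e-05). For gpx-6 the values were 4.43, 4.72, 6.46 and 5.77 RPKM in glp-1 libraries and 0.759, 1.35, 1.52 and 2.16 RPKM in TU3401 (log2 fold change 1.39, SE 0.19, adjusted p = 8.94e-05). In all 3 genes every glp-1 library was above every TU3401 library. Log2 fold changes were 1.82 for gpx-1 and 2.45 for gpx-7 under quantile scaling, and 2.18 for gpx-6 under voom. In gpx-1, 90 of 565 exon bases overlap drsh-1 on the opposite strand, which was lower (log2 fold change -3.59).

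The gene gpx-3 lies 1597 bases from gpx-5 on chromosome X. It had 6.75, 13.9, 14.8 and 14.9 RPKM in glp-1 libraries and 5.196, 6.35, 7.35 and 6.16 RPKM in TU3401. Replicate 1 of the glp-1 group lay within the TU3401 range while the other 3 were above it, and the gene was called higher (log2 fold change 0.85, SE 0.23, adjusted p = 0.00702; 1.51 under quantile scaling). The 2 members of the family that were lower were rare. The gene gpx-8 had 3 to 8 reads a library in glp-1 worms and 10 to 27 in TU3401 (0.421 ± 0.179 against 1.84 ± 0.5697 RPKM). It was called lower (log2 fold change -0.99, SE 0.17, limma adjusted p = 0.000523, and -1.77 under voom). Its mean reached the 1 RPKM needed for testing only through TU3401, where it is high, so this call carries little weight. For gpx-4, at 4.51 ± 1.15 RPKM in glp-1 worms and 6.47 ± 1.33 RPKM in TU3401, the groups overlapped (log2 fold change -0.44, SE 0.18, adjusted p = 0.0415). It was lost when replicate 1, 2 or 4 of TU3401 or replicate 1, 3 or 4 of glp-1 Luc was left out (log2 fold changes -0.34 to -0.48, limma adjusted p 0.0538 to 0.111). It was also lost, at the adjusted p-values in brackets, without the filter on low values (0.0670), with all 4 groups in 1 fit (0.0958), by quantile scaling (0.793) and by voom (0.319). The 8 genes summed to 730.3 ± 107 RPKM in glp-1 worms and 252 ± 14.1 RPKM in TU3401.

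Of 6 genes of the thioredoxin system tested, 4 were called lower and 1 higher, against 46.1% and 41.5% of all genes tested. Under quantile scaling trxr-1 and trx-2 were called higher and trx-4 was not called, so of the 4 trxr-2 alone was still called lower. The gene trxr-1, for the only selenoprotein of C. elegans, had 50.8, 63.1, 51.5 and 52.3 RPKM in glp-1 libraries and 76.9, 78.8, 74.6 and 70.7 RPKM in TU3401. Every glp-1 library was lower (log2 fold change -0.46, SE 0.08, adjusted p = 0.000625), but quantile scaling turned the sign (0.16, adjusted p = 0.0357). The gene trxr-2, for the mitochondrial reductase, had 4.53, 3.69, 5.14 and 4.91 RPKM in glp-1 libraries and 9.38, 9.24, 9.05 and 8.66 RPKM in TU3401. The groups did not overlap (log2 fold change -0.86, SE 0.10, adjusted p = 3.46e-05). Of its 1630 exon bases, 109 overlap cdc-25.3 on the opposite strand, which was much lower (log2 fold change -5.77).

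Among the thioredoxins themselves, 1 rose, 2 fell and 1 was not called. The level of trx-4 was 82.7 ± 12.7 RPKM in glp-1 worms and 108 ± 5.74 RPKM in TU3401, without overlap (log2 fold change -0.40, SE 0.12, adjusted p = 0.00987), a call not kept by quantile scaling (log2 fold change -0.01, adjusted p = 0.916) or voom (-0.12, 0.261). The mitochondrial trx-2 had 68.3 ± 7.51 RPKM in glp-1 worms and 80.6 ± 6.03 RPKM in TU3401, with overlapping libraries (log2 fold change -0.24, SE 0.09, adjusted p = 0.0387). That call ended without replicate 2, 3 or 4 of TU3401 or replicate 1 or 2 of glp-1 Luc (log2 fold changes -0.18 to -0.25, adjusted p 0.0597 to 0.102) and without the filter on low values (adjusted p = 0.05995). Its sign turned under quantile scaling (0.28, adjusted p = 0.0242) and voom (0.03, 0.812).

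The rare trx-1, known from the ASJ sensory neurons, had 1.96 ± 0.295 RPKM in glp-1 worms and 1.11 ± 0.476 RPKM in TU3401, with overlap, and was called higher (log2 fold change 0.51, SE 0.18, adjusted p = 0.0231; 1.14 under voom). The call was lost without replicate 1 or 4 of either group (log2 fold changes 0.39 to 0.48, adjusted p 0.0551 to 0.0579 by limma). Of the 639 exon bases of trx-1, 95 overlap cpna-2 on the opposite strand. That neighbour was higher, at 12.6 ± 0.695 RPKM in glp-1 worms and 3.33 ± 0.156 RPKM in TU3401 (log2 fold change 1.65). For trx-3, which is known from the intestine, the means were 4.99 ± 1.75 RPKM in glp-1 worms and 6.62 ± 2.24 RPKM in TU3401. It was not called (log2 fold change -0.34, SE 0.26, limma adjusted p = 0.244), and quantile scaling gave 0.06. In trx-3, 72 of 709 exon bases overlap gbb-2 on the opposite strand, which was higher (log2 fold change 1.45). Reads of trx-5 were too few to compare, with 0 reads in libraries labelled mxl-2 RNAi, 2 in those labelled mml-1 RNAi, 4 in glp-1 worms on Luc and 2 in TU3401.

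Glutathione synthesis showed opposite signs in its successive enzymes. The gene gcs-1 (chromosome II, 9035562 to 9038301), for the rate-limiting ligase and a standard SKN-1 target, had 115, 103, 96.0 and 98.4 RPKM in glp-1 libraries and 75.6, 83.2, 79.6 and 78.05 RPKM in TU3401. All glp-1 libraries were higher, by a modest amount (log2 fold change 0.37, SE 0.07, adjusted p = 0.00114). The gene gss-1 (chromosome II, 9414563 to 9416431), for glutathione synthetase, had 23.7, 24.9, 26.04 and 27.98 RPKM in glp-1 libraries and 52.2, 52.4, 52.8 and 51.98 RPKM in TU3401. Its groups were far apart (log2 fold change -1.003, SE 0.07, adjusted p = 5.09e-07), although quantile scaling took the call away (log2 fold change -0.12, adjusted p = 0.0816). The ratio of gcs-1 to gss-1 within a library was 4.85, 4.12, 3.69 and 3.52 in glp-1 worms and 1.45, 1.59, 1.51 and 1.502 in TU3401.

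The gene gsr-1 (chromosome III, 3650907 to 3652958), for glutathione reductase, had 94.2, 103, 104 and 116 RPKM in glp-1 libraries and 184, 189.6, 183 and 186 RPKM in TU3401. It was lower in every glp-1 library (log2 fold change -0.83, SE 0.07, adjusted p = 4.28e-06). The gene msra-1, whose product repairs oxidised methionine, had 43.03, 46.7, 56.9 and 62.6 RPKM in glp-1 libraries and 29.5, 34.1, 39.97 and 41.5 RPKM in TU3401. All glp-1 libraries lay above all TU3401 libraries, by little at the edge of the ranges (log2 fold change 0.51, SE 0.15, adjusted p = 0.00885; 1.24 under quantile scaling). In msra-1, 41 of 688 exon bases overlap insc-1 on the opposite strand, which was higher (log2 fold change 0.64).

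All 5 glutaredoxins were called lower, against 46.1% of all genes tested, although the call of glrx-10 was not kept by quantile scaling or voom. The level of glrx-21 was 24.8, 22.8, 24.6 and 26.1 RPKM in glp-1 libraries and 66.3, 73.5, 70.9 and 81.3 RPKM in TU3401 (log2 fold change -1.53, SE 0.08, adjusted p = 8.98e-08). That of glrx-22 was 27.6, 25.5, 28.4 and 32.8 RPKM in glp-1 libraries and 81.5, 85.1, 78.8 and 79.2 RPKM in TU3401 (log2 fold change -1.48, SE 0.08, adjusted p = 1.60e-07). In both genes no library of either group lay in the other's range. The gene glrx-5, whose yeast counterpart serves mitochondrial iron and sulfur cluster assembly, had 27.5, 31.1, 32.4 and 30.5 RPKM in glp-1 libraries and 80.9, 68.8, 73.7 and 75.97 RPKM in TU3401 (log2 fold change -1.27, SE 0.08, adjusted p = 2.74e-07). Likewise glrx-3, whose yeast counterparts handle cytosolic iron, had 30.5, 42.9, 32.8 and 38.6 RPKM in glp-1 libraries and 85.8, 81.1, 78.96 and 83.6 RPKM in TU3401 (log2 fold change -1.18, SE 0.11, adjusted p = 4.93e-06). Neither overlapped between the groups. Under quantile scaling all 4 stayed called lower by limma, at smaller log2 fold changes of -0.70 for glrx-21, -0.72 for glrx-22, -0.50 for glrx-5 and -0.47 for glrx-3.

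The most abundant glutaredoxin, glrx-10, moved least. It had 130 ± 14.7 RPKM in glp-1 worms and 162 ± 11.4 RPKM in TU3401 (log2 fold change -0.32, SE 0.10, adjusted p = 0.0126). The call was not kept by quantile scaling (log2 fold change -0.15, adjusted p = 0.177) or voom (-0.05, 0.672). Its share of the family's summed RPKM was 51.96 ± 3.1% in glp-1 worms and 34.2 ± 1.4% in TU3401. The 5 genes together summed to 249.7 ± 17.6 RPKM in glp-1 worms and 473 ± 16.7 RPKM in TU3401. Of the glutaredoxin genes, glrx-21 shares 63 exon bases with thoc-5 on the same strand. The gene glrx-5 shares 26 with rpt-6 on the opposite strand, which was lower (log2 fold change -1.69). For glrx-10, 77 of its 414 exon bases are shared with Y34D9A.8 on the opposite strand (log2 fold change 0.93). It also shares 5 with Y34D9A.7 on the same strand (log2 fold change -3.61), and glrx-3 shares 43 with irld-1 on the opposite strand.

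By place, the members on chromosome X were gpx-3, gpx-5 and gpx-7, all called higher in glp-1 worms. On chromosome X 63.9% of all tested genes were called higher and 21.4% lower. On chromosome I, 1 member was called higher and 4 lower, where 28.0% of all tested genes were higher and 62.3% lower, and on chromosome III the members split 1 higher and 5 lower, where all genes split 30.0% and 59.3%. Chromosome II, with 11 members, gave 7 higher and 2 lower of 10 tested, where 37.0% of all genes were higher and 52.6% lower. On chromosome IV the members were 1 higher and 4 lower, where 40.5% of all genes were higher and 44.2% lower. On chromosome V 2 were lower and 0 higher, where 52.6% of all genes were higher and 33.0% lower. Of the genes tested, 88.6% had a chromosome by symbol.

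The genes around these enzymes were read from lists of related functions. Over the lists 26 of 38 genes tested were called after germline loss, 18 higher and 8 lower, against 41.5% higher and 46.1% lower of all genes. Of the genes for NADPH supply, 4 of 8 tested were called higher and 2 lower, led by nnt-1, the mitochondrial nicotinamide nucleotide transhydrogenase (log2 fold change 3.08), Y57G11C.3 (-1.35) and idh-1, the cytosolic isocitrate dehydrogenase (-0.92). Oxidant sources and their partners were called higher in 5 of 6 genes and lower in none, with tsp-15 at 1.76, the dual oxidase gene bli-3 at 1.34 and its maturation factor gene doxa-1 at 1.06. Metal binding genes were higher in 4 of 5, with the ferritins ftn-1 at 5.53 and ftn-2 at 1.41 and the metallothionein mtl-1 at 4.33. Redox regulators were mixed, 3 higher and 4 lower of 13, with hsf-1 at -2.27, mxl-2 at -1.69 and the sestrin gene sesn-1 at 1.62. Transsulfuration and glyoxalase genes were 2 higher and 2 lower of 6, with cth-2 at 2.21, djr-1.1 at -1.56 and glod-4 at -1.45. All named genes passed limma's adjusted threshold.

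No member passed the test in libraries labelled mml-1 RNAi. None of 31 members tested (gpx-8 was too low here too) was called against glp-1 worms on Luc by limma or voom, where 0.0159% of all 12591 genes tested were called by limma. With the replicate number as a block, 14 genes were called higher and 46 lower over all genes, and still no member. At an unadjusted p under 0.05 there were 3 members by limma and 3 by voom, and 7.82% of all genes by limma. With the block limma had 8 members and 18.7% of all genes there. The lowest adjusted p was 0.375 by limma and 0.220 by voom, and the authors' deposited table gave no member a false discovery rate under 1. The 95% intervals of 30 of the 31 log2 fold changes lay within -1 and 1, all but that of gpx-3 (-0.27, -1.02 to 0.48). These limits are on the log2(RPKM + 1) scale, which understates changes of low genes, so they are not limits of 2-fold in RPKM. The groups' libraries did not overlap in 4 members, all higher, against 2.14% of all genes in that direction.

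Among these 4, gsr-1 had 130.2, 142, 124 and 132 RPKM in libraries labelled mml-1 RNAi and 94.2, 103, 104 and 116 RPKM on Luc, with all libraries of the first group above all of the second (log2 fold change 0.34, SE 0.09, adjusted p = 0.375). The level of prdx-2 was 1271, 1454, 1456 and 1299 RPKM in libraries labelled mml-1 RNAi and 1058, 1208, 1239 and 1208 RPKM on Luc (log2 fold change 0.22, SE 0.09, adjusted p = 0.590). For glrx-5 the values were 32.6, 36.1, 35.5 and 35.3 RPKM in libraries labelled mml-1 RNAi and 27.5, 31.1, 32.4 and 30.5 RPKM on Luc (log2 fold change 0.20, SE 0.08, adjusted p = 0.618). In each of these 3 genes every library labelled mml-1 RNAi lay above every Luc library, and none passed the adjusted threshold. The fourth, glrx-10, had 194, 152, 144 and 147 RPKM in libraries labelled mml-1 RNAi and 129, 109.7, 138 and 143 RPKM on Luc (log2 fold change 0.29, SE 0.13, adjusted p = 0.657). The fifth by p was sod-4, with 59.1, 50.3, 47.4 and 54.4 RPKM in libraries labelled mml-1 RNAi and 61.1, 67.4, 55.4 and 60.7 RPKM on Luc, and its groups overlapped (log2 fold change -0.21, SE 0.10, adjusted p = 0.707).

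**Figure D4:**
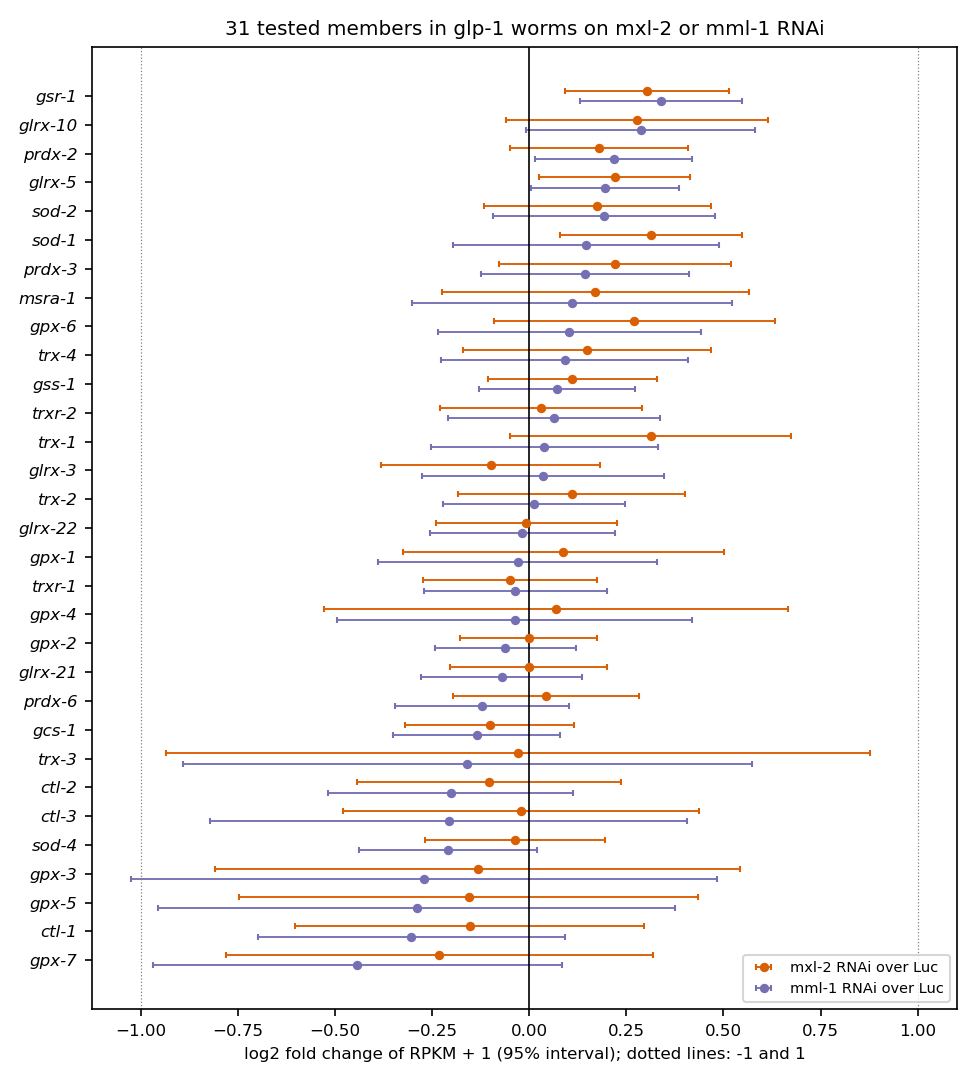
Log2 fold change with 95% confidence intervals (limma, log2(RPKM + 1) scale) of the 31 tested members in libraries labelled mxl-2 RNAi and in libraries labelled mml-1 RNAi, each over glp-1 Luc. Dotted lines mark -1 and 1 on that scale. No member is called in either comparison, and the interval of gpx-3 on mml-1 RNAi is the only one to pass a dotted line.

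In libraries labelled mxl-2 RNAi, too, none of 31 members was called against glp-1 worms on Luc by limma or voom, where 0.103% of all 12581 genes tested were. With the replicate block 8 genes were called higher and 16 lower over all genes, again with no member among them. At an unadjusted p under 0.05 limma had 3 members and voom 2, and limma 6.54% of all genes. With the block it had 7 members and 15.6% of all genes. All 31 intervals lay within -1 and 1 on the log2(RPKM + 1) scale. The rare sod-5 had 3 reads in libraries labelled mxl-2 RNAi, 4 in those labelled mml-1 RNAi and 2 on Luc, and gpx-8 had 6, 17 and 18 reads in the same order. Libraries did not overlap in 2 members, gsr-1 and glrx-5, both higher, against 2.15% of all genes in that direction. The glp-1 Luc libraries are the control of both RNAi groups, so a control value that is low for a gene enters both differences.

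The level of gsr-1 was 136, 134, 124 and 121 RPKM in libraries labelled mxl-2 RNAi and 94.2, 103, 104 and 116 RPKM on Luc (log2 fold change 0.30, SE 0.09, adjusted p = 0.503). For sod-1 it was 805, 726, 790.1 and 616 RPKM in libraries labelled mxl-2 RNAi and 630.4, 560.5, 604 and 560 RPKM on Luc (log2 fold change 0.31, SE 0.10, adjusted p = 0.533). Of these, sod-1 overlapped, with replicate 4 of the libraries labelled mxl-2 RNAi within the range of those on Luc. The level of glrx-5 was 35.4, 36.3, 36.4 and 33.8 RPKM in libraries labelled mxl-2 RNAi and 27.5, 31.1, 32.4 and 30.5 RPKM on Luc (log2 fold change 0.22, SE 0.09, adjusted p = 0.678). The rare trx-1 averaged 2.698 ± 0.615 RPKM in libraries labelled mxl-2 RNAi and 1.96 ± 0.295 RPKM on Luc (log2 fold change 0.31, SE 0.16, adjusted p = 0.828), and glrx-10 averaged 159 ± 29.6 RPKM in libraries labelled mxl-2 RNAi and 130 ± 14.7 RPKM on Luc (log2 fold change 0.28, SE 0.15, adjusted p = 0.859). Both overlapped.

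Between the libraries labelled mxl-2 RNAi and those labelled mml-1 RNAi, no member of 31 passed the test by limma or voom. Over all 12540 genes 0% were called, and 0.885% had an unadjusted p under 0.05, none of them a member by limma or voom. With the replicate block 0 genes were called, and 6.95% had an unadjusted p under 0.05, with sod-4, prdx-6 and gpx-5 the 3 members among them. Without the block the 5 lowest p-values belonged to trx-1 (log2 fold change 0.27, mxl-2 over mml-1 RNAi), sod-4 (0.17), prdx-6 (0.16), glrx-3 (-0.13) and ctl-1 (0.15), each with a limma adjusted p of 1.00. For trx-1 the values were 1.84, 2.798, 2.85 and 3.305 RPKM in libraries labelled mxl-2 RNAi and 1.86, 1.79, 2.45 and 2.04 RPKM in those labelled mml-1 RNAi, with overlap. The intervals of 30 of the 31 members lay within -1 and 1, all but that of trx-3 (0.13, -0.89 to 1.16). Of 38 tested genes of the related lists, limma called 0 in each of the 3 comparisons of RNAi groups, with unadjusted p-values under 0.05 for 2 on mxl-2 RNAi, 3 on mml-1 RNAi and 0 between them. Germline and oocyte markers summed to 10.97 to 20.1 RPKM in libraries labelled mxl-2 RNAi and 10.03 to 18.8 RPKM in those labelled mml-1 RNAi, against 12.1 to 19.1 RPKM on Luc.

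The libraries of a group shared a pattern by replicate number for some members. In 6 of 31 members considered, replicate 1 was the lowest library in all 4 groups, against 8.09% of all genes. These were gpx-3, gpx-5, msra-1, prdx-3, sod-2 and trx-4. In gpx-5 replicates 1 to 4 had 193, 329, 341 and 396 RPKM in libraries labelled mxl-2 RNAi, 164, 305, 300 and 394 RPKM in those labelled mml-1 RNAi, 249, 294, 413 and 436 RPKM in glp-1 worms on Luc and 61.4, 77.2, 85.8 and 101 RPKM in TU3401. Replicate 4 was its highest library in every group and replicate 1 its lowest. In the 3 glp-1 groups replicate 1 was lowest for 9 members, against 16.2% of all genes, and replicate 3 was highest for 7 members, against 1.48% of all genes. Those 7 were ctl-3, gpx-1, gpx-2, gpx-6, prdx-6, trx-2 and trxr-2. The labels do not say what the replicate numbers mark.

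**Figure D5:**
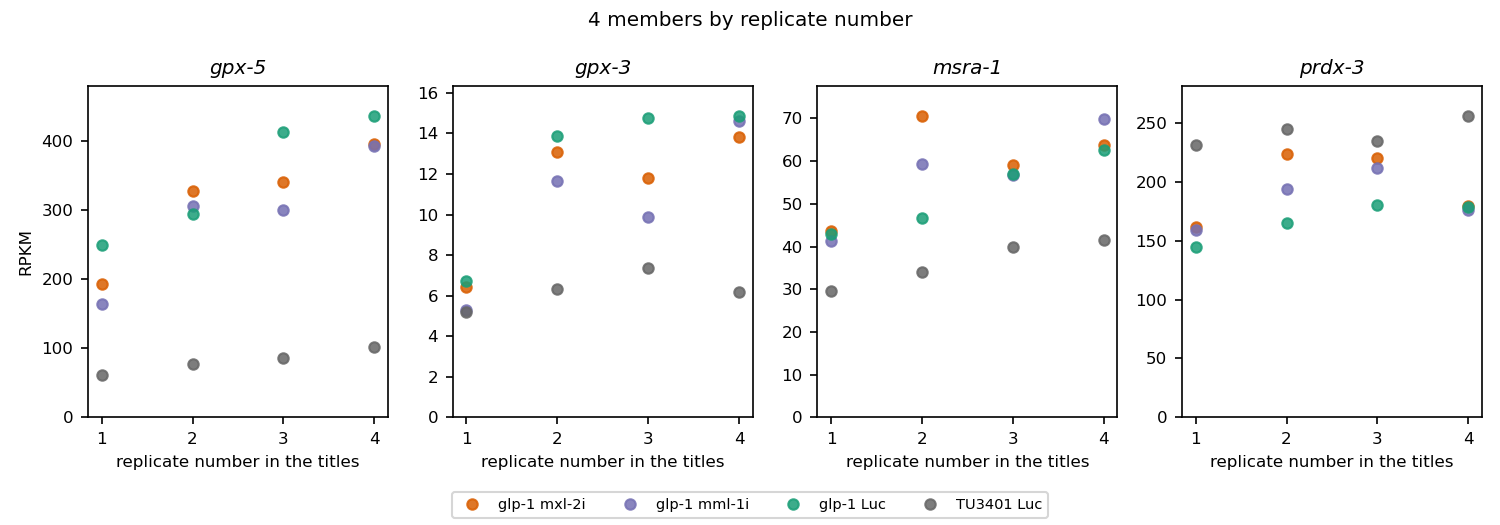
RPKM of gpx-5, gpx-3, msra-1 and prdx-3 by replicate number (1 to 4), with a point per library and colours for the 4 groups, on linear axes from 0. Replicate 1 is the lowest library of each group in all 4 genes.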

How the data were processed

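RNA of whole day 1 adults was measured in 16 libraries. Per the labels and file headers, the authors deposited 3 tables with RPKM values per library. The authors' deposited tables also hold, for each gene, a log2 fold change with its p-value and false discovery rate, which the tables' names credit to edgeR. The control columns shared by the tables were identical, so all values are on 1 scale. The submitters' processing notes name bcl2fastq, TopHat2 2.1.1 and GRCh38, a human build, so the build and counting tool used for these worm genes are not given in the sources used here. Coordinates are from the Ensembl annotation of WBcel235.

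Members were matched by gene name. Values were tested as log2(RPKM + 1) with limma 3.58.1 in R 4.3.3 (lmFit, eBayes with trend and robust variances, 2-sided), on the 8 libraries of each comparison and genes with a mean of at least 1 RPKM, and called at a Benjamini-Hochberg adjusted p under 0.05 over all genes. Fold changes on this scale understate the change of low genes. The fit was checked on simulated data with independent libraries and few changed genes. That check did not cover the many changed genes after germline loss, or libraries that deviate together by replicate number.

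The values of the 21-base piRNA loci gave what 1 read is worth, and all 25332 genes above 0 then came out as whole reads (within 0.001 reads). The depths, and limma's voom with trimmed-mean (TMM) scaling factors from a function written for this purpose as an alternative test, rest on these reads. Gene lengths were taken as the shortest that gave whole reads, and were not compared with coding sequence. Intervals on reads cover counting error only, since reads were summed over the 4 libraries of a group, which leaves out the spread between libraries. The labels mention no molecular identifiers.

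Samples of the same replicate number deviated together from their group means (every correlation at least 0.108 over the 4 comparisons, although after germline loss replicate 3, at 0.108, correlated at 0.245 with another number), so a fit with the number as a block was run too. Other alternatives were a pseudocount of 0.1, no filter, quantile and median-ratio scaling, all 4 groups in 1 fit, and leaving out each library. The members, lists of related genes and markers were chosen with earlier results of these data known. Values in every library are given for members called with an absolute log2 fold change of at least 1 after germline loss and for the peroxiredoxins, catalases, dismutases, reductases, gcs-1, gss-1 and msra-1. Statistics are given for members with the 5 smallest p-values in each comparison of RNAi groups. Up to 3 called genes are named per related list. Protein and promoter sequences were not used here.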

Additional observations from a re-analysis of the deposited data

Results flagged for a closer look

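Across 135 sets of 4 libraries (a member in a group), 6 held a library that stood apart from the other 3 by Dixon's test, where chance gives about 1 in 20. No cause was tested.

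Of these, 3 were in glp-1 worms on Luc. The level of gpx-3 was 6.75 RPKM in replicate 1, against 13.9 to 14.9 RPKM in the other 3. That of prdx-2 was 1058 RPKM in replicate 1, against 1208 to 1239 RPKM. That of trxr-1 was 63.1 RPKM in replicate 2, against 50.8 to 52.3 RPKM.

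The other 3 were in libraries labelled mml-1 RNAi. The level of glrx-10 was 194 RPKM in replicate 1, against 144 to 152 RPKM in the others. That of gss-1 was 24.4 RPKM in replicate 1, against 27.7 to 28.2 RPKM. That of gpx-6 was 7.44 RPKM in replicate 3, against 5.10 to 5.40 RPKM.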

How the results depend on the processing

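After germline loss 446 of 478 alternative values of the members kept their direction and their side of the threshold, 25 lost the call, 2 gained it and 5 changed sign. Under quantile scaling 11 members were called lower in place of 17, and prdx-2 (log2 fold change -0.11), trx-2 (0.28), trx-3 (0.057) and trxr-1 (0.16) changed sign. Under voom trx-2 did (0.026). The cause was not tested. With each library left out in turn, 12 to 13 members were called higher and 14 to 16 lower. Over all genes these fits called 40.1% to 41.6% higher and 45.0% to 46.9% lower. The replicate block gave 13 higher and 17 lower, against 42.2% and 46.3% of all genes, and changed no member's call in any comparison. Its lowest member adjusted p was 0.103 on mml-1 RNAi and 0.109 on mxl-2 RNAi.

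In the comparisons of RNAi groups 0 members were called higher and 0 lower under every alternative, left-out libraries included. Counts over all genes moved more. Against Luc, 2 genes were called lower and 0 higher on mml-1 RNAi in the fit reported, 5 and 1 with the smaller pseudocount, and 31 and 8 with all 4 groups in 1 fit. On mxl-2 RNAi, 11 were lower and 2 higher in the fit reported, 19 and 6 with all 4 groups in 1 fit, 5 and 2 by voom, and 2 and 0 without the filter. Leaving out a library gave 0 to 5 lower and 0 higher genes on mml-1 RNAi, except that without replicate 4 of that group 26 were lower and 27 higher, and gave 1 to 9 lower and 0 to 7 higher on mxl-2 RNAi, with most without its replicate 4. Depth limits sod-5, trx-5 and gpx-8, which had few reads.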
